A study of Mus musculus with 48 samples.

Results

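Skeletal muscle of female mice of 2 genotypes was compared after 21 days on the higher of the PFOS doses given, 10 mg/kg/day by oral gavage. The comparison used the 8 libraries whose column names join female, genotype and this dose, out of 48 libraries in all. There were 4 hCYP2B6-Tg females and 4 Cyp2b-null females, with 1 library per mouse from the gastrocnemius, the calf muscle. PFOS, perfluorooctane sulfonate, is a persistent fluorinated surfactant. hCYP2B6-Tg mice carry the human gene CYP2B6, a cytochrome P450 that metabolizes drugs and other foreign compounds, while in Cyp2b-null mice genes of the mouse Cyp2b family are deleted. The labels do not say whether the hCYP2B6-Tg mice also lack the mouse genes, which promoter drives the human gene, or how old the mice were. Both groups compared received PFOS, and no untreated mouse enters the comparison itself. Females given 0 or 1 mg/kg/day (4 per genotype at each dose) and males given 10 mg/kg/day (4 hCYP2B6-Tg and 3 Cyp2b-null) were used only to show where this comparison differed from the same one elsewhere.

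Muscle adapts its transcripts to feeding and fasting through a small number of regulators. When insulin signalling is low, transcription factors of the FOXO family enter the nucleus and switch on ubiquitin ligases that mark muscle protein for breakdown, genes of autophagy, and brakes on glucose oxidation. Glucocorticoids, hormones of fasting and stress, act on many of the same genes. When insulin and sugar are plentiful, SREBP-1c and ChREBP instead switch on the enzymes that turn citrate into fatty acids. The gene groups below follow this order, from protein breakdown and fasting fuel use to lipid synthesis, and then heat shock, matrix and contractile genes.

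The 8 libraries held 13661289 to 18075955 counts. Levels are given as CPM, counts relative to the library size scaled by TMM, for replicates 1 to 4 in order unless stated. Differences are log2 fold changes ± standard error, hCYP2B6-Tg over Cyp2b-null, from edgeR's quasi-likelihood test, with p adjusted over 15583 genes and a threshold of 0.05. Summed fast fibre transcripts, the defining markers of this muscle, were at 122000 to 226000 CPM. Xist had 2651 to 4257 counts and the Y-linked gene Ddx3y 0 in all 8. The genotype itself could not be checked: Cyp2b9, Cyp2b13 and Cyp2b23 had 0 counts in the 8 libraries, Cyp2b19 had 6 in 1 hCYP2B6-Tg library, and Cyp2b10 had 5, all in Cyp2b-null replicate 4. Human CYP2B6 was not analysed here. Replicate 2 of the hCYP2B6-Tg females stood apart in many of the genes below. Replicates 1 and 3 of the Cyp2b-null females shared a lower share of counts in the 20 most abundant genes (26 and 26.2%, against 27.8 to 35.5% in the other 6) and lower fast fibre sums (122000 and 124000 CPM, against 165000 to 226000). Glycam1, a gene of lymph node vessels, had 615 counts in hCYP2B6-Tg replicate 1 and 790 in Cyp2b-null replicate 3, and 0 or 1 in the other 6.

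At 10 mg/kg/day 2003 of 15583 genes (12.9%) differed between the genotypes in females. Of these, 1212 (7.78% of genes tested) were higher and 791 (5.08%) lower in hCYP2B6-Tg, and 247 and 153 were so by at least 2-fold. The median of all genes was -0.015. Ranked by size among well-expressed genes, the 12 leading higher genes were Pdk4, Trim63, Acot2, Depp1, Il6ra, Ddit4, Oacyl, Odf3l2, Fbxo32, Npc1, Cebpd and Arrdc3, from 4.13 down to 2.56. The 12 leading lower genes were Fasn, Ppp1r3b, Elovl6, Acly, Aldh1a7, Thrsp, Rrad, Pnpla3, Ptges, Agpat2, Cdh4 and Acaca, from -3.95 to -2.07. Scaling set the direction of the balance: with unscaled library totals the median of all genes moved to -0.091, and of 1993 genes 752 were higher and 1241 lower (37.7% higher, against 60.5% with TMM).

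These calls rested on a spread pooled over all 48 libraries, with 36 residual degrees of freedom and a biological coefficient of variation of 23.5%. Fitted on the 8 libraries alone (6 residual degrees of freedom, 33.1%), edgeR called 0 genes, with a lowest adjusted p of 0.235 and 2195 genes at an unadjusted p under 0.05. All 2003 kept their sign there, which was largely fixed in advance, since both fits take the group levels from the same 8 libraries. Of the 2003, 1572 had an unadjusted p under 0.05. As they were selected in these libraries, this is no separate support. Without hCYP2B6-Tg replicate 2, 576 genes passed, 289 higher (1.85% of genes tested) and 287 lower (1.84%), and 540 of them were among the 2003. In every fit that left out 1 of the 8 libraries 469 genes passed with the same sign, 256 higher and 213 lower. Pdk4, Trim63, Acot2, Depp1, Il6ra, Oacyl, Fbxo32, Npc1, Ppp1r3b, Acly and Thrsp were the leading genes among them, and each of the others lost its call in at least 1 of these fits. The groups did not overlap for 499 of the 1212 higher and 420 of the 791 lower genes. Over all genes tested they did not overlap for 710 with hCYP2B6-Tg above (4.56%) and 686 with it below (4.4%).

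**Figure D1:**
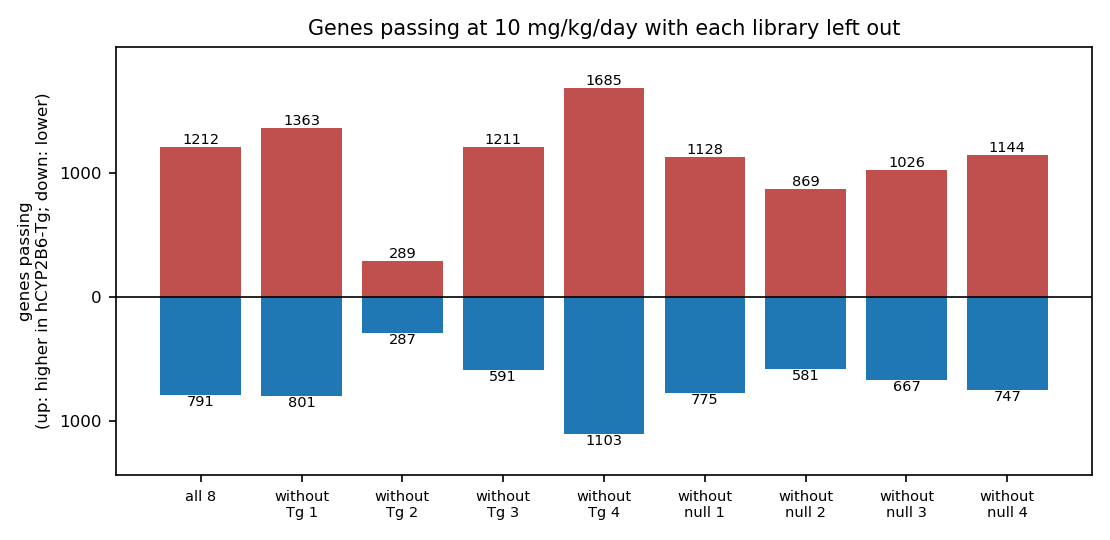
Number of genes that passed at 10 mg/kg/day in females with all 8 libraries and with each library left out in turn; bars above 0 count genes higher in hCYP2B6-Tg (Tg) and bars below 0 genes lower than in Cyp2b-null (null). Without Tg replicate 2 the counts are 289 and 287, and without Tg replicate 4 they are 1685 and 1103.

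Genes of muscle protein breakdown were higher in hCYP2B6-Tg females. Of 29 tested genes of atrophy and FOXO targets, 16 were higher, 0 were lower and 13 did not pass, with a median of 0.91. For this list and each one below, the shares of all genes tested were 7.78% higher and 5.08% lower. The first of them is Trim63, the ubiquitin ligase MuRF1, which marks proteins of the thick filament for the proteasome (ENSMUSG00000028834, chromosome 4, 134315120 to 134329629, GRCm38). Its promoter is shown because FOXO factors are known to act on this gene and because its transcript differed 9.33-fold. The sequence runs from 250 bases before the start of transcription to 50 after it, on the + strand, chr4:134314870-134315169 of GRCm38.p6 from RefSeq, with the FOXO core GTAAACA, searched on both strands, in capitals.
Trim63 promoter: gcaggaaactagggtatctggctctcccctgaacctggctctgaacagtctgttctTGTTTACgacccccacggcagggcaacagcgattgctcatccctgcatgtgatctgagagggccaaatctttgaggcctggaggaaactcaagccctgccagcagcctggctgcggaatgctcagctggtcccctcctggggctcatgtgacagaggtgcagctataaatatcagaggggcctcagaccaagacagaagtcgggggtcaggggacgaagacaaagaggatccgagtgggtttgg
The match, read here on the opposite strand, begins at position -194 from the start and overlaps no other motif searched. Windows of the same length held this core in 3.65% of 32851 cases, in 4.1% of 1221 windows of genes that were higher, 2.14% of 748 of genes that were lower and 2.57% of 12203 of genes that did not pass. A match describes these letters and is no measured site. The same search was made in the windows of Pdk4, Foxo1, Il6ra, Acot2, Depp1 and Ddit4, which were also higher. Each held 0 FOXO cores.

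Trim63 was at 570, 5800, 1060 and 217 CPM in hCYP2B6-Tg and at 191, 168, 229 and 231 CPM in Cyp2b-null. Replicates 1 to 3 of hCYP2B6-Tg lay above all Cyp2b-null libraries and replicate 4 within their range. The log2 fold change was 3.22 ± 0.48 (adjusted p = 5.46e-05), and 1.59 (adjusted p = 0.00209) without hCYP2B6-Tg replicate 2. Fbxo32, the partner ligase atrogin-1 (ENSMUSG00000022358, chromosome 15, 58175879 to 58214932), was at 979, 4600, 1640 and 371 CPM, and at 430, 166, 304 and 347 CPM in Cyp2b-null. The same 3 libraries were above the other genotype and replicate 4 was not. Its difference was 2.61 ± 0.38 (adjusted p = 4.6e-05), and 1.68 without replicate 2 (adjusted p = 0.00142).

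Foxo1, a FOXO factor itself (chromosome 3, 52268336 to 52353221), separated the genotypes in every library. It was at 68.9, 303, 117 and 48.7 CPM in hCYP2B6-Tg and at 31.6, 23.6, 33 and 34.4 CPM in Cyp2b-null (2.13 ± 0.39, adjusted p = 0.000385). Depp1, a FOXO target that promotes autophagy, was at 27.9, 217, 70.2 and 13 CPM against 11.7, 6.04, 7.98 and 12.5 CPM. The groups met but did not overlap, with a difference of 3.10 ± 0.58 (adjusted p = 0.000456). Without hCYP2B6-Tg replicate 2 the differences of Foxo1 and Depp1 were 1.35 (adjusted p = 0.0183) and 1.96 (adjusted p = 0.0234). Further members of the list that were higher, named after their values were seen, were Foxo3, Sesn1, Gabarapl1, Fbxo21, Fbxo30, Traf6 and Klf15. The metallothioneins Mt1 (-0.44, adjusted p = 0.647) and Mt2 (-1.23, adjusted p = 0.388), the growth inhibitor Mstn (0.91, adjusted p = 0.068) and the cell cycle inhibitor Cdkn1a (0.51, adjusted p = 0.407) did not pass. Without hCYP2B6-Tg replicate 2, 9 of the 29 were higher, 0 were lower and the median was 0.42.

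**Figure D2:**
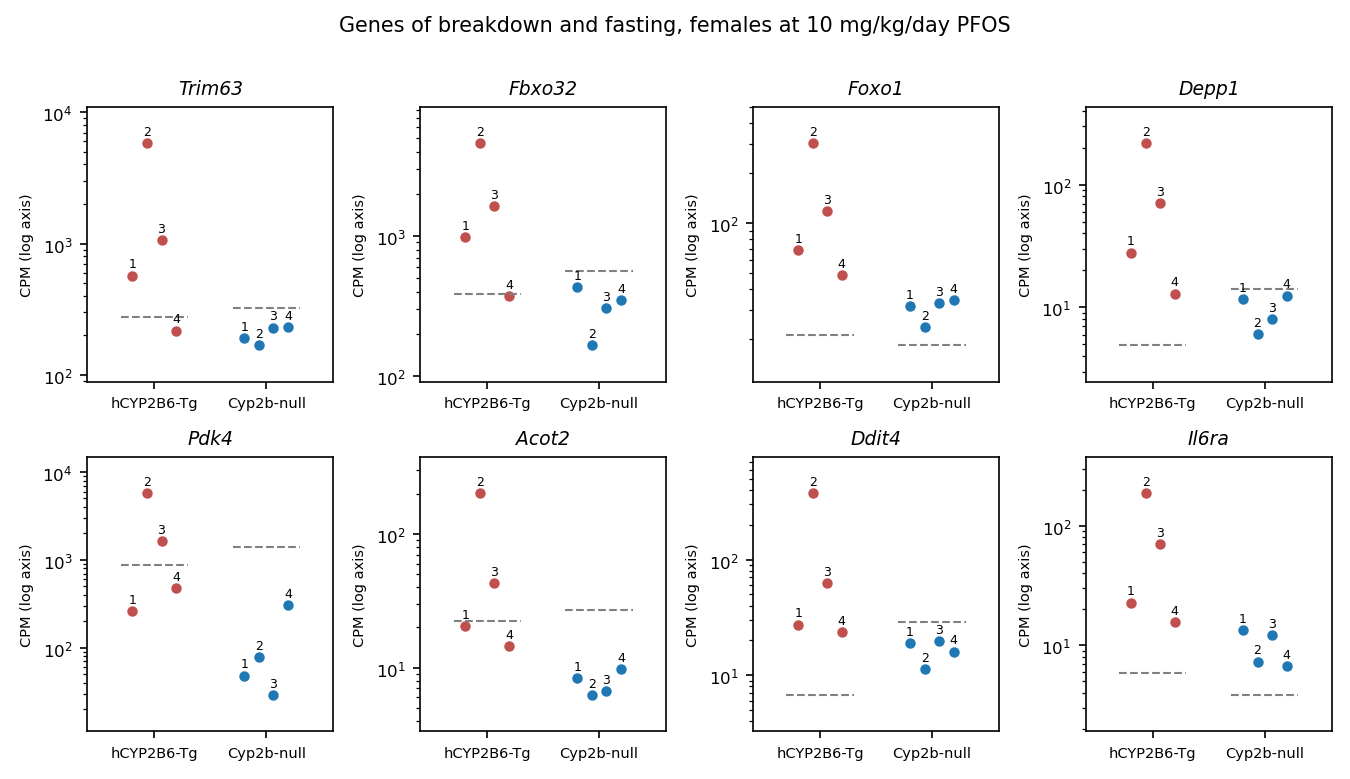
Level in CPM (log axes) of 8 genes of breakdown and fasting in each of the 8 females at 10 mg/kg/day, with points numbered by replicate; dashed lines are the means of 4 females of the same genotype at 0 mg/kg/day. Replicate 2 of hCYP2B6-Tg is the highest library in all 8 panels, with Trim63 at 5800 CPM against 217 to 1060 CPM in the other 3 of its group.

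Autophagy, which delivers proteins and organelles to lysosomes, had 7 of 28 tested genes higher and 0 lower (median 0.10). Ulk1, the kinase that starts autophagy, was at 148, 538, 151 and 96.5 CPM in hCYP2B6-Tg and 56.1, 88.6, 45.9 and 126.6 CPM in Cyp2b-null (1.56 ± 0.29, adjusted p = 0.000499). Sqstm1, the cargo receptor p62, was at 812, 1640, 938 and 461 CPM against 541, 448, 531 and 484 CPM (0.94 ± 0.17, adjusted p = 0.000379). In both genes replicate 4 of hCYP2B6-Tg lay within the range of the other genotype. Atp6v1h, a subunit of the proton pump that acidifies lysosomes, did not overlap between the groups (19.2 to 73.2 CPM against 13.1 to 18.9 CPM, 1.17 ± 0.23). Ctsl, the lysosomal protease cathepsin L, was also higher (1.18 ± 0.22, adjusted p = 0.000456). These 4 were the ones of the list that passed when hCYP2B6-Tg replicate 2 was left out. Npc1, which exports cholesterol from lysosomes, was among the leading genes: 121.8, 694, 128.1 and 64.3 CPM against 43.3, 33.8, 34.3 and 55.4 CPM (2.60 ± 0.37, adjusted p = 4.6e-05). All 4 hCYP2B6-Tg libraries were above all 4 Cyp2b-null libraries, and the difference was 1.33 (adjusted p = 0.000487) without replicate 2. Of 35 proteasome subunits 0 passed in either direction (median -0.0038), while 4 were lower on unscaled totals and 1 without hCYP2B6-Tg replicate 2.

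Genes that spare glucose and release fatty acids in fasting were in part higher. Of 22 tested PPAR and fasting genes 7 were higher, 1 was lower and 14 did not pass (median 0.68). Leaving out hCYP2B6-Tg replicate 2 left 2 higher and 1 lower (median 0.45), and on unscaled totals 4 were higher. Pdk4, which inactivates pyruvate dehydrogenase by phosphorylation (ENSMUSG00000019577, chromosome 6, 5483351 to 5496309), had the largest difference of the leading genes, 17.5-fold. It was at 262, 5760, 1620 and 475 CPM in hCYP2B6-Tg and at 48.3, 78.4, 29 and 308 CPM in Cyp2b-null. The groups overlapped in 1 pair of libraries, hCYP2B6-Tg replicate 1 and Cyp2b-null replicate 4. The log2 fold change was 4.13 ± 0.76 (adjusted p = 0.000434), and 2.76 without hCYP2B6-Tg replicate 2 (adjusted p = 0.0158). At 0 mg/kg/day Pdk4 averaged 885 ± 715 CPM in hCYP2B6-Tg and 1400 ± 510 CPM in Cyp2b-null (SD, n = 4), and the lowest Cyp2b-null female without PFOS was at 989 CPM.

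Acot2, a mitochondrial enzyme that splits fatty acyl-CoA, was at 20.5, 203, 42.8 and 14.5 CPM against 8.35, 6.23, 6.69 and 9.74 CPM. These groups did not overlap (3.18 ± 0.53, adjusted p = 0.000182), also without hCYP2B6-Tg replicate 2 (1.75, adjusted p = 0.0114). Angptl4, a secreted inhibitor of lipoprotein lipase, was higher (2.10 ± 0.60, adjusted p = 0.0154) with its highest value, 28.2 CPM, in replicate 3. Leaving out replicate 3 of hCYP2B6-Tg gave 1.46 (adjusted p = 0.12), and the call was also lost without Cyp2b-null replicate 2 or 4 (adjusted p = 0.0603 and 0.0523). Ucp3, a carrier of the inner mitochondrial membrane, was at 45.4, 287, 120 and 77.5 CPM against 21.3, 47.6, 18 and 76.2 CPM (1.70 ± 0.43, adjusted p = 0.00607). It gave 0.99 (adjusted p = 0.164) without replicate 2. Plin2, which coats lipid droplets, was the member that went the other way: 15.6, 10, 30 and 19.5 CPM against 92.1, 26.9, 57.6 and 24.4 CPM (-1.41 ± 0.28, adjusted p = 0.000905). Plin4, another droplet protein of fat and muscle, was higher (476 to 1530 CPM against 256 to 394 CPM, 1.36 ± 0.26, adjusted p = 0.000596). Of 23 enzymes of fatty acid oxidation 2 were higher and 0 lower, Acot2 and Eci2 (0.53 ± 0.17, adjusted p = 0.0294). This count is near the share of all genes tested that were higher, 7.78%. Eci2 fell to 0.19 (adjusted p = 0.544) without hCYP2B6-Tg replicate 2.

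Glucocorticoid targets had 8 of 16 tested genes higher and 0 lower, with a median of 0.91. On unscaled totals 6 were higher, with a median of 0.78. Members such as Ddit4 and Angptl4 also stand in other lists, so this count is not separate from theirs. When hCYP2B6-Tg replicate 2 was left out 2 of the 16 were higher, with a median of 0.35. Klf9, a transcription factor that glucocorticoids induce, passed in every fit that left out 1 of the 8 libraries. It was at 292, 428, 229 and 222 CPM in hCYP2B6-Tg and 128.8, 143.7, 108.5 and 197 CPM in Cyp2b-null, without overlap (1.02 ± 0.18, adjusted p = 0.000385, and 0.78 with adjusted p = 0.0103 without replicate 2). Ddit4, or REDD1, an inhibitor of mTORC1, was at 27.3, 376, 62.5 and 23.7 CPM against 19.1, 11.2, 19.8 and 15.9 CPM (2.89 ± 0.64, adjusted p = 0.00222). The groups did not overlap, yet the difference became 1.20 (adjusted p = 0.226) without replicate 2. Fkbp5, a cochaperone of the glucocorticoid receptor, was at 121, 433, 185 and 94.3 CPM against 74.4, 40.6, 64.3 and 59.9 CPM (1.80 ± 0.38, adjusted p = 0.00151), and 1.16 without replicate 2 (adjusted p = 0.0561). Glul, another member, was higher (1.27 ± 0.35, adjusted p = 0.0122), and gave 0.53 (adjusted p = 0.4) without replicate 2. Cebpd, a transcription factor of the acute phase that is not in this list, had 42.7, 389, 99.8 and 36.7 CPM against 22.8, 13.7, 31.1 and 27.5 CPM (2.58 ± 0.52, adjusted p = 0.000944). Without replicate 2 it was at 1.33 (adjusted p = 0.0715). The receptor gene Nr3c1 (-0.05, adjusted p = 0.875) and the targets Tsc22d3 (0.39, adjusted p = 0.382) and Sgk1 (0.42, adjusted p = 0.4) did not pass.

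Genes of insulin signalling went both ways, with 5 of 23 higher and 3 lower (median 0.17). The receptor genes Insr (0.69 ± 0.16, adjusted p = 0.00372) and Igf1r (0.86 ± 0.17, adjusted p = 0.000785) and the adaptor Irs2 (0.91 ± 0.20, adjusted p = 0.00171) were higher. Igf1r was at 52.2, 73.7, 45 and 29.9 CPM against 25.5, 29, 27.2 and 28.9 CPM, without overlap. Gsk3b, the kinase that holds glycogen synthase inactive, was at 108.8, 388, 110 and 86 CPM against 83.9, 79.8, 67.5 and 87.8 CPM (1.12 ± 0.24, adjusted p = 0.00169). Pik3r1, a regulatory subunit of phosphoinositide 3-kinase, was at 194, 254, 277 and 198 CPM against 204, 74.2, 148 and 62.2 CPM (0.92 ± 0.25, adjusted p = 0.00985), a call also lost without Cyp2b-null replicate 2 or 4. The adaptor Irs1 (-0.97, adjusted p = 0.0084), Igfbp5, which binds insulin-like growth factors (-1.53, adjusted p = 0.00686), and the adaptor Grb10 (-0.49, adjusted p = 0.0148) were lower, and are named after their values were seen. Without hCYP2B6-Tg replicate 2, 1 gene of the list was higher, Igf1r, and 1 was lower, Irs1.

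Il6ra, the receptor for interleukin-6, was among the leading genes with 22.7, 187, 70.1 and 15.5 CPM against 13.4, 7.26, 12.1 and 6.7 CPM. It did not overlap (2.90 ± 0.48, adjusted p = 0.000182), and gave 1.87 (adjusted p = 0.00687) without replicate 2. Socs3, a target and inhibitor of that pathway, was at 1.95 to 4.95 CPM against 2.12 to 23.3 CPM and just passed (-1.36 ± 0.47, adjusted p = 0.0498). Without Cyp2b-null replicate 3, its highest library, it was at -0.32 (adjusted p = 0.704), and the call was also lost without hCYP2B6-Tg replicate 1, 2 or 4 or Cyp2b-null replicate 1 (adjusted p of 0.0629 to 0.216). Arrdc3, an arrestin-like protein of membrane traffic, was at 70.6, 597, 113 and 45.8 CPM against 32.5, 40.4, 22.2 and 44.8 CPM (2.56 ± 0.50, adjusted p = 0.000703, and 1.13 with adjusted p = 0.0855 without replicate 2). Oacyl was at 5.23, 46.4, 7.73 and 5.65 CPM against 1.09 to 2.82 CPM, without overlap (2.88 ± 0.49, adjusted p = 0.000211).

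Enzymes of fatty acid synthesis were lower in hCYP2B6-Tg females. Of 20 tested genes of lipogenesis 11 were lower and 0 higher, with a median of -1.29, and on library totals without scaling factors the counts were the same. Fasn encodes fatty acid synthase (chromosome 11, 120805846 to 120824547; ENSMUSG00000025153) and was the lowest relative to Cyp2b-null, 15.5-fold. Elovl6, which lengthens the palmitate that Fasn makes (chromosome 3, 129532355 to 129638495), was 10.7-fold lower. Their promoters are shown because these genes moved together, Fasn on the - strand at chr11:120824498-120824797 and Elovl6 on the + strand at chr3:129532136-129532435, in the same window and build as above, with any match to the FOXO core, the E-box CACGTG or the sterol element TCACNCCAC in capitals.
Fasn promoter: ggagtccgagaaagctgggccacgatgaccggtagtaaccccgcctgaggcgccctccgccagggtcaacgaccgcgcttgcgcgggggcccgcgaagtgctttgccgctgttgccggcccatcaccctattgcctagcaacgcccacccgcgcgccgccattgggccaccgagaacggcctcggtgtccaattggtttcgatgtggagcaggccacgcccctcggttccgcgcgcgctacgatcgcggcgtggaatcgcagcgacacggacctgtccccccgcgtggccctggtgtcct
Elovl6 promoter: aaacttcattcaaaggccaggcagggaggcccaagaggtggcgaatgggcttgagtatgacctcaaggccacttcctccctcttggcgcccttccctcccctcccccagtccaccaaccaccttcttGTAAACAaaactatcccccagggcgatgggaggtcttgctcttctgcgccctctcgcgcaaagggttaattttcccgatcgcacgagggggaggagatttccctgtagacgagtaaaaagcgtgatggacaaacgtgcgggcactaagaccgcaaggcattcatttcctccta
The Fasn window held none of the 3 motifs, which says only that these letters are not there. The Elovl6 window held 1 FOXO core at position -123. Windows of the lower genes Acly, Thrsp, Acaca and Me1 were searched as well and held none of the 3 motifs. The E-box was in 7.15% and the sterol element in 1.24% of all windows. Among genes that were lower they were in 9.49 and 1.47%, and among genes that did not pass in 9.43 and 1.07%. For genes that were higher the shares were 11.5 and 1.72%. The sterol element was in 21 of 1221 windows of higher genes and in 11 of 748 of lower genes. Differences between these shares were not tested.

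Fasn was at 59.1, 18.5, 35.7 and 149 CPM in hCYP2B6-Tg and at 2680, 202, 1130 and 40.7 CPM in Cyp2b-null. Replicates 1 and 3 of Cyp2b-null were far above all other libraries, while its replicate 4 lay within the range of hCYP2B6-Tg. The difference was -3.95 ± 1.10 (adjusted p = 0.0127). It did not pass without hCYP2B6-Tg replicate 2 (-3.64, adjusted p = 0.0784) or without Cyp2b-null replicate 1 (-2.80, adjusted p = 0.0737). Acly, which makes acetyl-CoA from citrate, was at 25.6, 21, 21.6 and 40.4 CPM against 757, 44.5, 275 and 18.8 CPM (-3.33 ± 0.65, adjusted p = 0.000641). The order of libraries was like that of Fasn, and Acly passed in each fit that left out 1 of the 8 libraries. Acaca, which makes malonyl-CoA, was at 28.9, 28.3, 25.8 and 46 CPM against 335, 36.1, 154 and 16.7 CPM (-2.07 ± 0.52, adjusted p = 0.00603, and -1.09 with adjusted p = 0.128 without Cyp2b-null replicate 1). Elovl6 was at 0.887 to 5.42 CPM against 76.9, 6.17, 27.1 and 2.42 CPM (-3.41 ± 0.88, adjusted p = 0.00774). It did not pass without hCYP2B6-Tg replicate 2 (-3.13, adjusted p = 0.0569) or Cyp2b-null replicate 1 (-2.17, adjusted p = 0.0962). Thrsp, a regulator of lipogenesis, was at 10.1 to 20.2 CPM against 253, 28.3, 134 and 11.4 CPM (-2.71 ± 0.61, adjusted p = 0.00257).

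Me1, the malic enzyme that supplies NADPH for this pathway (chromosome 9, 86581371 to 86695953), separated the genotypes in every library. It was at 282, 233, 210 and 267 CPM in hCYP2B6-Tg and 660, 378, 467 and 419 CPM in Cyp2b-null (-0.96 ± 0.15, adjusted p = 0.000103, and -0.93 with adjusted p = 0.00154 without hCYP2B6-Tg replicate 2). Srebf1, the gene of SREBP-1c, did not overlap either, at 87.1 ± 31.0 CPM in hCYP2B6-Tg and 159.4 ± 39.9 CPM in Cyp2b-null (SD, n = 4 each). The difference was -0.87 ± 0.25 (adjusted p = 0.0149). It gave -0.64 (adjusted p = 0.127) without replicate 2, and -0.73 (adjusted p = 0.0716) without Cyp2b-null replicate 2. Ppp1r3b, a glycogen-targeting subunit of protein phosphatase 1, was at 0.0591 to 1.26 CPM against 26.2, 1.16, 11.3 and 1.05 CPM (-3.82 ± 0.83, adjusted p = 0.0019). Its levels followed the same libraries as Fasn. The storage enzymes Dgat1 (-0.23, adjusted p = 0.699) and Dgat2 (-0.52, adjusted p = 0.641) and the desaturase Scd1 (-2.10, adjusted p = 0.271) did not pass. Without hCYP2B6-Tg replicate 2, 4 of the 20 passed, all lower (Acaca, Acly, Me1 and Thrsp), and the median was -1.32.

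**Figure D3:**
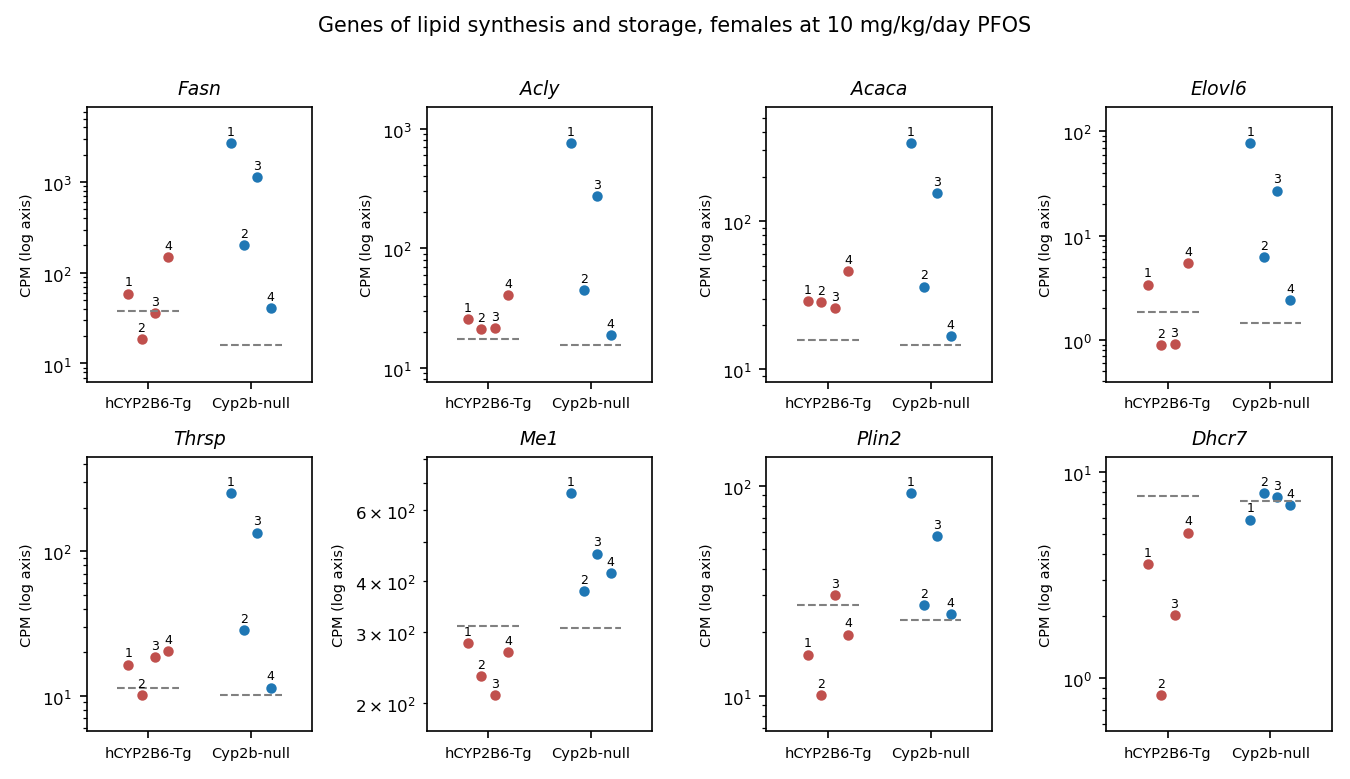
Level in CPM (log axes) of 8 genes of lipid synthesis and storage in each of the 8 females at 10 mg/kg/day, with points numbered by replicate; dashed lines are the means of 4 females of the same genotype at 0 mg/kg/day. Cyp2b-null replicates 1 and 3 are high in the lipogenic genes (Fasn 2680 and 1130 CPM), while Me1 separates the genotypes in all libraries.

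Fat cells express the lipogenic genes strongly, and their markers varied among the same libraries. Adipoq, the adipokine adiponectin, was at 27.1, 4.97, 105.4 and 41.8 CPM in hCYP2B6-Tg and at 105.2, 26.9, 65.5 and 8.75 CPM in Cyp2b-null (-0.20 ± 0.95, adjusted p = 0.926). Leptin (Lep) was at 1 to 8.89 CPM against 0.31 to 7.54 CPM (-0.27 ± 1.07, adjusted p = 0.912). Of 19 tested adipocyte markers 1 passed, Plin4, which was higher, while 7.78% of all genes tested were higher. The mean log2 CPM of the list was 2.67 to 5.72 in hCYP2B6-Tg and 2.80 to 5.60 in Cyp2b-null, with 0 of its members at 0 in all 8 libraries. It was highest in hCYP2B6-Tg replicate 3 and Cyp2b-null replicate 1, where Adipoq was at 105.4 and 105.2 CPM while Fasn was at 35.7 and 2680 CPM. The part of fat cells in the lipogenic levels was not tested. In bulk tissue fewer cells of a type and less RNA per cell cannot be told apart.

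Genes of cholesterol synthesis and uptake had 8 of 19 lower and 1 higher, with a median of -0.59. Dhcr7, which makes cholesterol in the last step of the pathway, did not overlap: 3.58, 0.828, 2.02 and 5.09 CPM against 5.87, 7.91, 7.54 and 6.89 CPM (-1.29 ± 0.25, adjusted p = 0.000569). It passed without hCYP2B6-Tg replicate 2 (-0.99, adjusted p = 0.00516). Cyp51, the lanosterol demethylase, was at 2.07 to 4.64 CPM against 17.8, 5.21, 10.6 and 3.16 CPM (-1.33 ± 0.36, adjusted p = 0.00966). Nsdhl, another enzyme of sterol demethylation, was lower (-0.98 ± 0.25, adjusted p = 0.00812). Both had their highest values in Cyp2b-null replicates 1 and 3, as did Fasn, and both calls were lost without Cyp2b-null replicate 1 (adjusted p = 0.13 and 0.129) or hCYP2B6-Tg replicate 2 (adjusted p = 0.0556 and 0.0552). Fdft1, squalene synthase, went the other way (0.67 ± 0.18, adjusted p = 0.00944), with 287 CPM in hCYP2B6-Tg replicate 2 and 93.5 to 166 CPM elsewhere. Without replicate 2 it was at 0.31 (adjusted p = 0.288), and 2 genes of the list were lower.

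**Figure D4:**
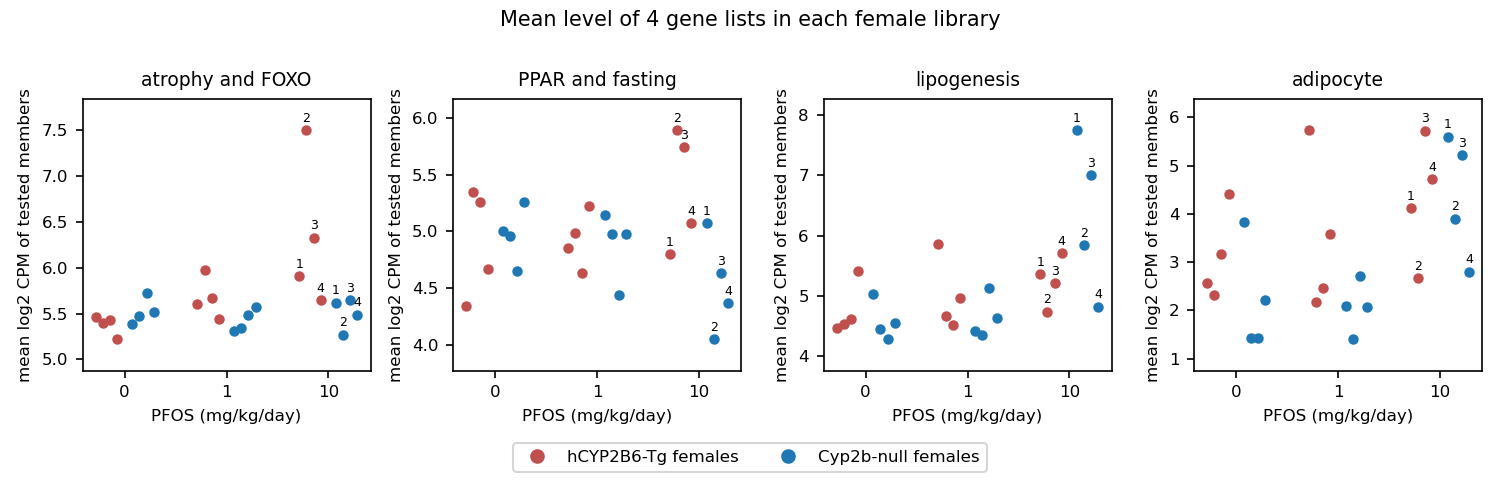
Mean log2 CPM of the tested members of 4 gene lists in each female library at 0, 1 and 10 mg/kg/day PFOS, hCYP2B6-Tg in red and Cyp2b-null in blue, with replicates numbered at 10 mg/kg/day. For atrophy and FOXO genes hCYP2B6-Tg reaches 5.65 to 7.5 at 10 mg/kg/day and Cyp2b-null 5.27 to 5.65, while for adipocyte markers both genotypes cover a like range.

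Heat shock genes had 5 of 20 lower and 0 higher (median -0.23), and without hCYP2B6-Tg replicate 2 the count was 4. Hspb3, a small heat shock protein of muscle, separated the genotypes in every library: 9.21, 2.01, 7.54 and 10.1 CPM in hCYP2B6-Tg and 17.6, 17.4, 20.1 and 15.6 CPM in Cyp2b-null (-1.29 ± 0.22, adjusted p = 0.000203). The groups did not overlap, and the difference was -0.98 (adjusted p = 0.000375) without replicate 2. Hspa8, the constitutive chaperone HSC70, was at 519, 621, 467 and 547 CPM against 937, 663, 820 and 689 CPM, without overlap (-0.53 ± 0.15, adjusted p = 0.0133, and 0.0506 and 0.0656 without hCYP2B6-Tg replicate 3 or Cyp2b-null replicate 1). Hsph1, its exchange factor, was lower (-0.72 ± 0.18, adjusted p = 0.00634), and so was Hsf1, the factor that switches these genes on (-0.42 ± 0.11, adjusted p = 0.00685). The inducible genes Hspa1a (-0.20, adjusted p = 0.905) and Hspa1b (0.0099, adjusted p = 0.996) did not pass. In the endoplasmic reticulum 3 of 19 chaperone and unfolded protein response genes were higher and 2 lower. Dnajb9, a cochaperone of BiP, was higher without overlap (52.7 to 140 CPM against 40.2 to 51.3 CPM, 0.79 ± 0.16). Calr (-0.27 ± 0.089) and Pdia6 (-0.32 ± 0.10), which fold new proteins, were lower, with calls lost in 5 and 4 of the 8 fits that left out 1 library (adjusted p of 0.0555 to 0.152 and 0.0862 to 0.22). The list had 1 gene higher and 0 lower without hCYP2B6-Tg replicate 2. Edem1, of the degradation pathway, passed on 1 library (95.2 CPM in hCYP2B6-Tg replicate 2, 8.31 to 17.3 CPM in the other 7), with 1.36 ± 0.41 and -0.09 without it.

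Genes of fibroblasts and matrix had 4 of 27 lower and 0 higher (median -0.46). Serpinh1, the collagen chaperone HSP47, was at 16.2, 10.8, 17 and 22.2 CPM against 52.1, 31.9, 43.3 and 23.8 CPM, without overlap (-1.19 ± 0.24, adjusted p = 0.000953). It was the member that passed without hCYP2B6-Tg replicate 2 (-1.03, adjusted p = 0.0159). Col6a2 was at 14.8, 8.87, 11.6 and 24.3 CPM against 31.4, 43.3, 28.4 and 24.1 CPM (-1.09 ± 0.29, adjusted p = 0.00965). The collagens Col6a3 (-0.82 ± 0.28, adjusted p = 0.047) and Col15a1 (-0.72 ± 0.23, adjusted p = 0.0284) were lower as well, with replicate 4 of hCYP2B6-Tg within the Cyp2b-null range of all 3 collagens. Calls were lost without 1 of 2 libraries for Col6a2 (hCYP2B6-Tg replicate 2 or Cyp2b-null replicate 2) and in 6 of the 8 such fits for Col6a3 and for Col15a1 (adjusted p of 0.07 to 0.283 and 0.0514 to 0.14). The summed level of the whole list was 774 to 1200 CPM in hCYP2B6-Tg and 927 to 1410 CPM in Cyp2b-null. Of tendon, macrophage, nerve, erythroid, and neutrophil and lymphocyte markers 0 passed. The summed neutrophil and lymphocyte markers were high in the libraries with Glycam1. They were at 160 CPM in hCYP2B6-Tg replicate 1 and 231 CPM in Cyp2b-null replicate 3, and at 7.4 to 24.2 CPM in the others. Glycam1, a member of that list, was itself at 40.7 and 39.2 CPM in these libraries. Of 16 endothelial markers 1 was higher, no more than the share over all genes tested (7.78%). It was the tight junction gene Cldn5 (13.5 to 32.5 CPM against 9.55 to 12 CPM, 0.93 ± 0.29, adjusted p = 0.0253), which did not pass without hCYP2B6-Tg replicate 2 or 3 or Cyp2b-null replicate 4 (adjusted p of 0.0565 to 0.165). Of 14 liver markers 6 were at 0 in all 8 libraries and 0 of 6 tested passed, and albumin (Alb) was at 3.55 CPM or less. Summed liver markers were at 70.3, 50.1, 190 and 81.3 CPM in hCYP2B6-Tg and at 47.9, 65, 23.3 and 20.6 CPM in Cyp2b-null. At 0 mg/kg/day these sums were 7.04 to 33.6 CPM and 1.03 to 26.4 CPM. The source of these transcripts was not tested.

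Among genes of fibre type, 0 of 19 fast fibre genes passed (median -0.062), and Myh4, the main fast myosin, was at 41500 to 48100 CPM against 26100 to 55800 CPM. Of 18 slow fibre genes 1 was higher, no more than the share over all genes tested (7.78%). The median of this list was 0.77, and 0.86 without hCYP2B6-Tg replicate 2. It was 0.43 in females at 0 mg/kg/day and 2.01 in males at 10 mg/kg/day. Summed slow fibre transcripts overlapped, at 3750 to 8830 CPM in hCYP2B6-Tg and 1220 to 6230 CPM in Cyp2b-null. The gene that passed was Mybpc1, the slow myosin-binding protein C: 1520, 1990, 3520 and 2330 CPM against 1130, 722, 766 and 742 CPM. The groups did not overlap (1.48 ± 0.49, adjusted p = 0.0368), though the call was lost in 5 of the fits that left out 1 of the 8 libraries (without hCYP2B6-Tg replicate 2 or 3 or Cyp2b-null replicate 2, 3 or 4, with adjusted p of 0.0807 to 0.122). Myh7, the slow myosin, ranged from 483 to 1800 CPM and from 39.8 to 1440 CPM and did not pass (0.80 ± 1.44, adjusted p = 0.784). Myf6, the myogenic factor MRF4, was at 53.4 to 56.5 CPM against 63.7 to 108.7 CPM (-0.55 ± 0.15, adjusted p = 0.00943). Rapsn, which clusters acetylcholine receptors at the nerve contact, was at 18.3 to 31.9 CPM against 35.1 to 47.1 CPM (-0.58 ± 0.12, adjusted p = 0.00136). Neither gene overlapped between the groups, and both passed without hCYP2B6-Tg replicate 2 (adjusted p = 0.0397 and 0.0227), though Myf6 did not without Cyp2b-null replicate 3 (-0.37, adjusted p = 0.0944). Myog, another myogenic factor, was lower (-0.97 ± 0.33, adjusted p = 0.0411), and Stac3, which couples excitation to calcium release, as well (-0.60 ± 0.16, adjusted p = 0.008). Myog lost its call in 6 of the 8 fits that left out 1 library (all but those without hCYP2B6-Tg replicate 4 or Cyp2b-null replicate 4, adjusted p of 0.0664 to 0.172), and Stac3 without hCYP2B6-Tg replicate 2 or Cyp2b-null replicate 4 (adjusted p = 0.0808 and 0.0616). Actc1 did not pass (-0.63 ± 0.74, adjusted p = 0.65).

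Stress and redox genes were higher in some cases. Of 28 antioxidant genes 5 were higher and 1 lower, among them both subunits of the enzyme that starts glutathione synthesis, Gclc (0.89 ± 0.17, adjusted p = 0.000572) and Gclm (0.98 ± 0.23, adjusted p = 0.00299), and the haem oxygenase Hmox1 (1.33 ± 0.28, adjusted p = 0.00131). Hmox1 was at 6.43, 18.6, 9.56 and 5.2 CPM against 4.06, 4.05, 4.26 and 3.47 CPM, without overlap. With hCYP2B6-Tg replicate 2 left out, 1 gene of the list was higher, Gclc, and 0 were lower, with Gclm at 0.37 (adjusted p = 0.193) and Hmox1 at 0.83 (adjusted p = 0.0532). Of 25 genes of the integrated stress response 4 were higher and 0 lower, such as the factor Atf4 (0.59 ± 0.14, adjusted p = 0.00481) and Vldlr, a lipoprotein receptor (1.26 ± 0.23, adjusted p = 0.000439). Vldlr alone of the list passed with that library left out, and Atf4 was at 0.32 (adjusted p = 0.134). Asns, the asparagine synthetase, did not pass (-0.35 ± 0.61, adjusted p = 0.778). Of 20 clock genes 4 were higher and 1 lower. Cry2 (1.31 ± 0.28) and Rora (0.75 ± 0.21) were among the higher ones, and Cry1 was the lower one (-0.49 ± 0.14). Cry2 was at 292 CPM in hCYP2B6-Tg replicate 2 and at 38.8 to 70.3 CPM in the other 7. With hCYP2B6-Tg replicate 2 left out 0 clock genes passed, with Cry2 at 0.38 (adjusted p = 0.162), Rora at 0.28 (adjusted p = 0.457) and Cry1 at -0.51 (adjusted p = 0.053). Cry1 also did not pass without Cyp2b-null replicate 1 or 3 (adjusted p = 0.155 and 0.084), nor Rora without Cyp2b-null replicate 3 (adjusted p = 0.0501).

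Mitochondrial genes are the subject in the title of the series, and those of the respiratory chain, mitochondrial DNA and the TCA cycle did not pass at this dose. Of 36 subunits of complex I 0 passed (median -0.11), of 39 genes of complexes II to V 0 (median -0.051), of 13 genes encoded in mitochondrial DNA 0 (median 0.24) and of 21 enzymes of pyruvate entry and the TCA cycle 0 (median 0.02). mt-Co1 was at 20800 to 22500 CPM in hCYP2B6-Tg and at 13600 to 24700 CPM in Cyp2b-null (0.24 ± 0.13, adjusted p = 0.254). Ppargc1a, the coactivator of mitochondrial biogenesis, was at 25.6 to 33.6 CPM against 22.9 to 34.5 CPM (0.11 ± 0.20, adjusted p = 0.775). Of 22 genes of mitochondrial biogenesis and dynamics 3 were higher, Gabpa (0.40 ± 0.094), Polrmt (0.43 ± 0.11) and Sirt1 (0.39 ± 0.13), and 0 lower. All 3 calls were lost without hCYP2B6-Tg replicate 2 (0.25, 0.32 and 0.20, adjusted p = 0.0759, 0.0802 and 0.438), and that of Sirt1 also without Cyp2b-null replicate 1, 2 or 3 (adjusted p of 0.0658 to 0.126). On library totals without scaling factors 2 complex I subunits and 0 genes of complexes II to V were lower, and 1 mitochondrially encoded gene was higher. Of 18 genes of branched-chain amino acid breakdown 3 were higher, Aldh6a1, Bckdha and Ppm1k, and Ppm1k, the phosphatase that activates the pathway, did not overlap (19.1 to 24.8 CPM against 11 to 16.1 CPM, 0.67 ± 0.21). Ppm1k did not pass without hCYP2B6-Tg replicate 1 or 3 or Cyp2b-null replicate 1 or 3 (adjusted p of 0.0544 to 0.0892), and Aldh6a1 and Bckdha did not without hCYP2B6-Tg replicate 2 (adjusted p = 0.12 and 0.195) or Cyp2b-null replicate 2 (adjusted p = 0.0639 and 0.0515). Glycolysis (25 genes) and cytosolic ribosomal proteins (53) had 0 genes that passed, and on unscaled totals 2 and 6 were lower. Among P450 and related genes Cyp27a1 was higher (1.01 ± 0.24, adjusted p = 0.00356) and Cyp2u1 lower (-0.65 ± 0.22, adjusted p = 0.04). Cyp27a1 was at 0.54 (adjusted p = 0.136) without hCYP2B6-Tg replicate 2. Cyp2u1 did not pass without hCYP2B6-Tg replicate 1, 2 or 4 or Cyp2b-null replicate 3 or 4 (adjusted p of 0.0719 to 0.17).

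**Figure D5:**
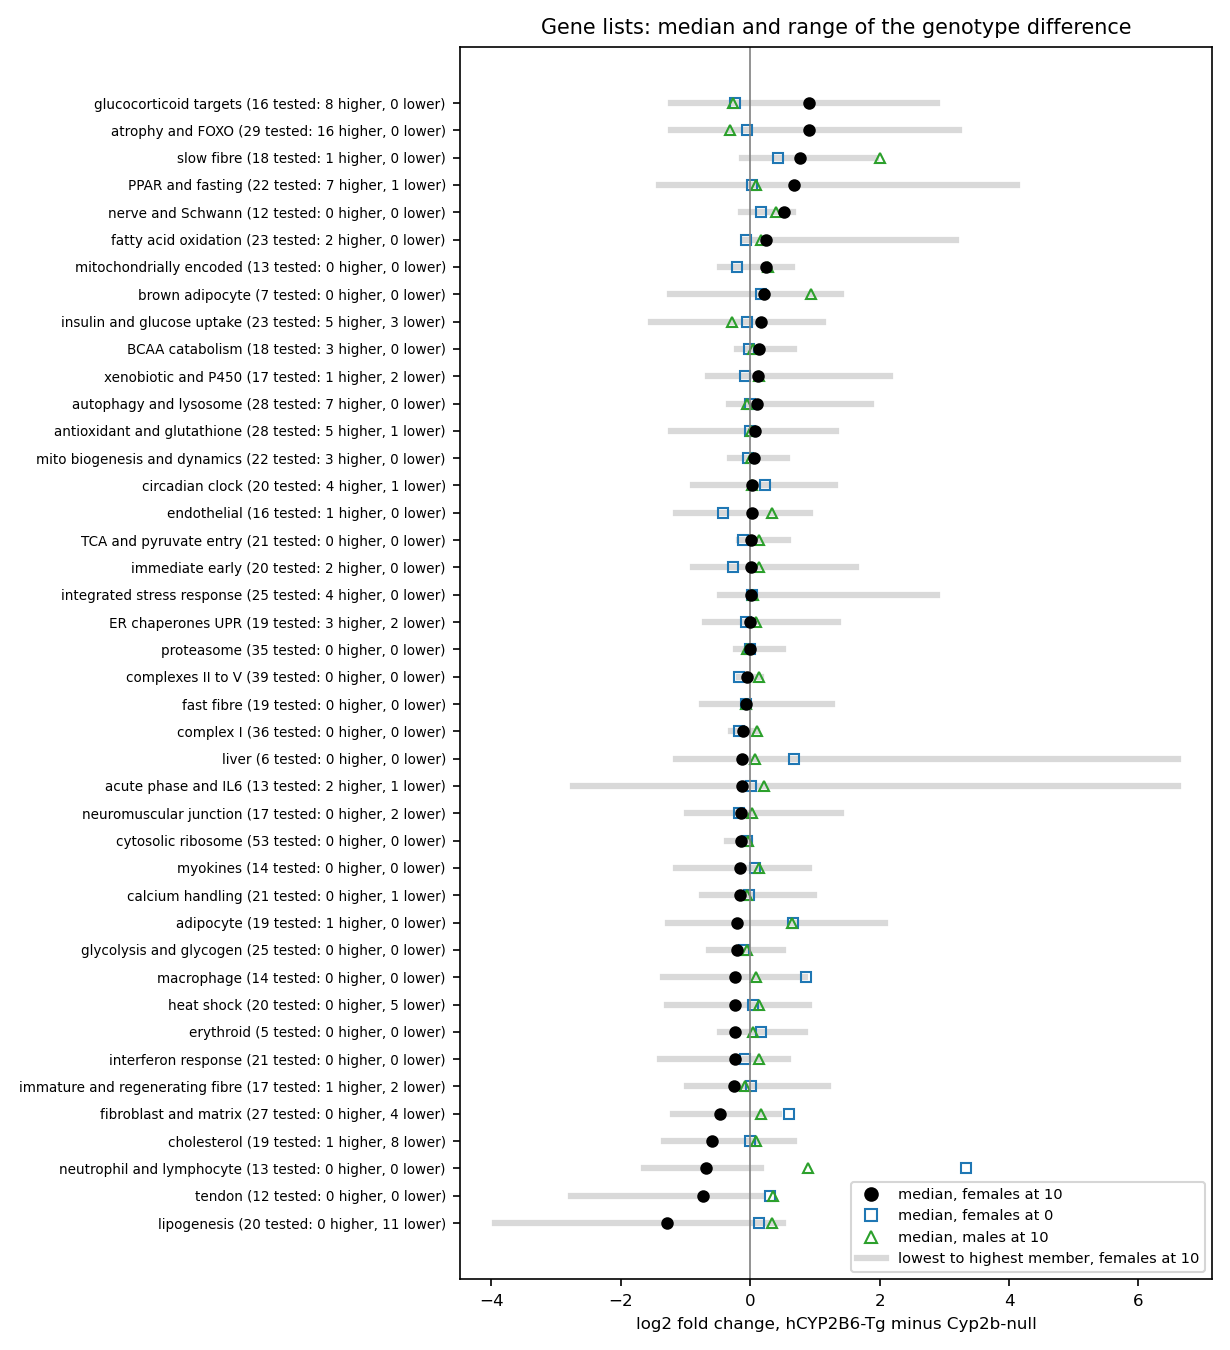
Median log2 fold change, hCYP2B6-Tg over Cyp2b-null, of the tested members of each gene list in females at 10 mg/kg/day (black), in females at 0 mg/kg/day (blue squares) and in males at 10 mg/kg/day (green triangles); grey bars run from the lowest to the highest member in females at 10 mg/kg/day. Atrophy and FOXO genes have medians of 0.91, -0.056 and -0.31, and lipogenesis -1.29, 0.14 and 0.34.

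Without PFOS the genotypes were not told apart gene by gene. At 0 mg/kg/day edgeR called 0 of 15583 genes (0%), with 665 at an unadjusted p under 0.05, and DESeq2 called 4 and limma voom 0. At 1 mg/kg/day edgeR called 0 genes (0%), with 659 at an unadjusted p under 0.05, DESeq2 8 and limma voom 37. Trim63 was at 278 ± 32.9 and 324 ± 67.1 CPM at 0 mg/kg/day (SD, n = 4, hCYP2B6-Tg first) and at 470 ± 185 and 285 ± 16.2 CPM at 1 mg/kg/day. Foxo1 was at 21.2 ± 5.05 and 18.3 ± 2.4 CPM without PFOS and at 77.5 ± 49.8 and 24.3 ± 9.79 CPM at 1 mg/kg/day, where its difference was 1.68 ± 0.39. Fasn averaged 37.6 ± 49.6 and 15.9 ± 13.4 CPM without PFOS, and Me1 311 ± 15.3 and 306 ± 37.4 CPM.

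The difference between the genotypes at 10 mg/kg/day was set against that at 0 mg/kg/day in an interaction term, which shares the 8 libraries above and adds 8 others. It passed for 153 genes in the direction of a larger value in hCYP2B6-Tg at the higher dose (0.982% of genes tested) and 60 in the other (0.385%). Of the 29 atrophy and FOXO genes 7 passed, all in the first direction, and of the 20 lipogenesis genes 2, both in the second. Trim63 (interaction 3.44 ± 0.64, adjusted p = 0.00654), Fbxo32 (3.16 ± 0.51, adjusted p = 0.00185), Pdk4 (4.80 ± 1.00, adjusted p = 0.0143), Acot2 (3.44 ± 0.71, adjusted p = 0.0129) and Ddit4 (4.96 ± 0.92, adjusted p = 0.00654) passed. So did Acly (-3.51 ± 0.88, adjusted p = 0.0372), Me1 (-0.98 ± 0.21, adjusted p = 0.0181), Hspb3 (-1.41 ± 0.30, adjusted p = 0.0183) and Dhcr7 (-1.37 ± 0.34, adjusted p = 0.0372). Fasn (adjusted p = 0.0599), Foxo1 (adjusted p = 0.0565) and Il6ra (adjusted p = 0.0708) did not. Part of the value of Ddit4 came from an opposite difference at 0 mg/kg/day (-2.08 ± 0.67), which did not pass. There it averaged 6.74 ± 2.56 CPM in hCYP2B6-Tg and 28.6 ± 29.5 CPM in Cyp2b-null (SD, n = 4 each). Dbp, an output gene of the clock, passed as well. It averaged 84.5 ± 19.9 and 26.3 ± 13.5 CPM at 0 mg/kg/day and 27.4 ± 22.3 and 50.6 ± 40.6 CPM at 10 mg/kg/day (-2.57 ± 0.66, adjusted p = 0.0423). The interaction passed for 13 genes without hCYP2B6-Tg replicate 2 at 10 mg/kg/day, and for 621 and 1085 without its replicates 1 and 4. It passed for 82, 71 and 325 without Cyp2b-null replicates 2, 3 and 4 at that dose, for 27, 76 and 72 without hCYP2B6-Tg replicates 1, 3 and 4 at 0 mg/kg/day, and for 36, 82 and 110 without Cyp2b-null replicates 2, 3 and 4 there. On unscaled totals 30.9% of 181 genes were in the first direction in place of 71.8%.

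In males at 10 mg/kg/day the same comparison called 2 genes (0.0128%), both lower in hCYP2B6-Tg, with 1350 at an unadjusted p under 0.05. They were Furin, a protease of the secretory pathway, and Syne1, which anchors nuclei, named after their values were seen, and in females both were higher (0.71 and 0.72). DESeq2 called 34 genes in males and limma voom 169. Trim63 in males was at 587 ± 216 CPM (SD, n = 4) in hCYP2B6-Tg and at 1300 ± 257 CPM (n = 3) in Cyp2b-null (-1.14 ± 0.47, adjusted p = 0.429). Cebpd (48.4 ± 7.85 and 148 ± 88.2 CPM), Depp1 (44.7 ± 17.2 and 102 ± 64.2 CPM) and Ddit4 (23.8 to 49.5 and 70.1 to 274.6 CPM) were also at lower means in hCYP2B6-Tg males without passing. The difference between the sexes in the genotype effect passed for 987 genes with the larger value in females (6.33%) and 487 with the smaller (3.13%). Of the atrophy and FOXO genes 19 of 29 passed in the first direction, and of lipogenesis genes 8 of 20 in the second and 1 in the first. It was 4.37 ± 0.66 for Trim63 (adjusted p = 0.000127), 3.12 ± 0.53 for Fbxo32 (adjusted p = 0.000323), 4.97 ± 1.02 for Pdk4 (adjusted p = 0.0019), 1.61 for Klf9 (adjusted p = 0.000323) and 3.27 ± 0.52 for Npc1 (adjusted p = 0.000224). For Fasn it was -5.00 ± 1.55 (adjusted p = 0.0345), for Acly -4.33 ± 0.93 (adjusted p = 0.00269) and for Me1 -1.04 ± 0.22 (adjusted p = 0.00228). Without hCYP2B6-Tg female replicate 2 the count fell from 1474 to 659 genes, and on unscaled totals 36.7% of 1427 genes were in the first direction in place of 67%.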

How the data were processed

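Per the labels' protocols, libraries were built from messenger RNA after TRIzol extraction; their extraction text names liver, while the tissue field names gastrocnemius. The submitters' processing notes name HISAT2 and GRCm39. The counting program, its annotation and whether strand was used: not given in the sources used here. Raw read counts were deposited by the authors for 54532 genes, whose coordinates are those of GRCm38: 98.3% of the 54495 identifiers also in GENCODE vM21 have the same start and end there. Whether reads of overlapping genes were separated by strand is therefore unknown.

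From the deposited counts, CPM and all tests were computed here. Genes passing filterByExpr were scaled by TMM, fitted with 1 coefficient for each of 12 groups over 48 libraries and tested with edgeR's quasi-likelihood test (edgeR 4.0.16, R 4.3.3), two-sided, with Benjamini-Hochberg adjustment over 15583 genes. The standard error is the log2 fold change over the square root of F. On simulated counts with the same design 79% of 2-fold and 96% of 4-fold changes were found. The simulation used the spread pooled over 48 libraries (a biological coefficient of variation of 23.5%). The 8 libraries compared had a wider spread (33.1%), so these shares do not describe the comparison itself. Replicates are separate mice. Alternatives used DESeq2 1.42.0, limma voom with quality weights (3.58.1), other scalings and filters, a replicate block, the compared groups alone, and left-out libraries.

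Genes were named by rule: the 12 largest differences in each direction among genes that passed, had a proper symbol and averaged 1 or more in log2 CPM, up to 4 passing members of each gene list by smallest p, the 5 largest in each direction of both interaction terms, and a fixed set read in any case. The libraries, lists and rule were chosen with earlier results of these data known. Promoters came from RefSeq (GRCm38.p6). Members of 2 lists that the rule also named are not reported here.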

Additional observations from a re-analysis of the deposited data

Results flagged for a closer look

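Levels of 104 named genes were searched in each of the 2 groups for a library whose gap to the nearest other exceeded Dixon's critical value for 4 samples (0.829 of the range). This gave 27 cases in 208 groups. That count has no reference rate, since the groups share the same 8 libraries and most genes were named for differences in them. Replicate 2 of the hCYP2B6-Tg females was the highest of its group in Acot2 (203 CPM), Arrdc3 (597), Btg2 (134), Cry2 (292), Ddit4 (376), Edem1 (95.2), Gadd45a (123), Glul (1850), Gsk3b (388), Insr (253), Irs2 (113), Maff (34.4), Npc1 (694), Oacyl (46.4), Rora (390), Trim63 (5800) and Ulk1 (538), and the lowest in Ptges (0.591 CPM). Replicate 3 was high in albumin (Alb, 3.55 CPM), Asns (8.89) and leptin (Lep, 8.89), and replicate 4 in Acaca (46 CPM), Col15a1 (12) and Zfp493 (1.85). Glycam1 stood at 40.7 CPM in hCYP2B6-Tg replicate 1 and at 39.2 CPM in Cyp2b-null replicate 3. In Cyp2b-null, replicate 1 was high in Mybpc1 (1130 CPM).

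The genotype difference at 10 mg/kg/day differed from that at 0 mg/kg/day by an interaction test in edgeR, with the largest values (log2) for Ddit4 (4.96), Pdk4 (4.80), Depp1 (4.62), Odf3l2 (3.80) and Cebpd (3.59) in one direction. In the other they were Acly (-3.51), Dbp (-2.57), Galr2 (-2.56), Zfp493 (-2.06) and Ssc5d (-1.96). The differences at 0 mg/kg/day had the opposite sign and did not pass. In the same order they were -2.08, -0.66, -1.51, -1.03 and -1.02, and then 0.18, 1.69, 0.62, 0.26 and 0.98. Between females and males at 10 mg/kg/day the largest interaction values were those of Ddit4 (5.07), Pdk4 (4.97), Trim63 (4.37), Depp1 (4.30) and Cebpd (4.19), and of Fasn (-5.00), Elovl6 (-4.70), Acly (-4.33), Ppp1r3b (-4.19) and Thrsp (-3.64). Without hCYP2B6-Tg female replicate 2 these interaction tests passed for 13 and 659 genes, in place of 213 and 1474.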

How the results depend on the processing

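For females at 10 mg/kg/day the count of 2003 genes became 2022 with DESeq2 size factors, 1993 on unscaled totals, 1385 without a filter, 2080 with a stricter one, 2280 with DESeq2, 662 with limma voom and quality weights, 0 in a fit of the 8 libraries alone, 1816 without both Glycam1 libraries, and 576 (without hCYP2B6-Tg replicate 2) to 2788 (without its replicate 4) with 1 of the 8 left out. Leaving out both Glycam1 libraries and hCYP2B6-Tg replicate 2, chosen after seeing the data, left 53 genes, with 5 of the 2003 calls at the opposite sign. The interaction with dose passed for 1.37% of genes tested (213), and for 0.363% without a filter, 3.56% with DESeq2, 0.462% with voom, 0% with its 16 libraries alone (1882 genes at an unadjusted p under 0.05), 2.12% without the Glycam1 libraries, 0% without all 3 (1516 at an unadjusted p under 0.05), and 0.0834% to 6.96% with 1 library left out. The interaction with sex passed for 895 without a filter, 904 with voom, 0 with its 15 libraries alone (2536 at an unadjusted p under 0.05), 323 without the 3 libraries and 659 to 2186 with 1 left out. Males gave 1 gene on unscaled totals, 34 with DESeq2, 169 with voom, 1 with their 7 libraries alone, 89 in the fit without the 3 female libraries and 0 to 16 with 1 left out. The gene called from the 7 male libraries alone was neither Furin nor Syne1. DESeq2 called 4 genes at 0 mg/kg/day and 8 at 1 mg/kg/day, voom 37 at 1 mg/kg/day, and leaving out 1 library gave 0 and 0 to 6. Same-numbered females of the 2 genotypes at 10 mg/kg/day did not deviate together (correlations of -0.34, -0.026, -0.072 and -0.08). These correlations cannot show whether the numbers pair mice by design. With the replicate number as a block 1880 genes passed at 10 mg/kg/day, 0.905% of genes in the interaction with dose and 1279 genes in that with sex. Of 92 named genes that passed, 0 did so under every setting; Edem1 turned to -0.037 under voom, and ranged from -0.09 (without hCYP2B6-Tg replicate 2) to 1.67 with 1 library left out. Fits of the compared groups alone had fewer libraries. For females at 10 mg/kg/day such a fit also had a wider spread, a biological coefficient of variation of 33.1% against 23.5% in the pooled fit. The cause of these changes was not tested.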
